A study of Mus musculus with 24 samples.

Results

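The 9 genes described here encode dual-specificity phosphatases that act on MAP kinases: Dusp1, Dusp2, Dusp3, Dusp4, Dusp5, Dusp6, Dusp7, Dusp10 and Dusp16. They were taken by symbol from a table of normalized intensities of 18132 mouse genes, which lists them in capitals (DUSP1, DUSP2, DUSP3, DUSP4, DUSP6, DUSP7, DUSP10 and DUSP16). Of the 9 genes, 8 had an entry in this table and Dusp5 had none, so Dusp5 was not analysed here. All 8 were bright enough to be tested, among 10059 genes in all that were. The RNA came from macrophages that had been differentiated in culture from bone marrow, here of female Balb/c mice aged 8 to 10 weeks. The cultures were left for 24 h with isoproterenol, with interleukin-4 (IL-4), with interferon-gamma (IFN-gamma) or in medium alone, and no genotype, dose or pooling is given in the labels. Isoproterenol, a catecholamine drug, stimulates beta-adrenergic receptors, IL-4 is the standard stimulus of alternative macrophage activation, and IFN-gamma is that of classical activation. The study asked where beta-adrenergic macrophages lie between the other two states and which transcription factors could drive their genes. Each of the 4 groups had 6 Illumina bead arrays, 2 from each of 3 experiments, and every experiment held every group. The 2 arrays were averaged before testing, so n = 3 experiments per group. Whether the 2 arrays, or the 3 experiments, stand for separate animals is not stated in the labels, so a p-value here covers the spread among these samples and no more.

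MAP kinases (ERK, JNK and p38) are switched on when an upstream kinase phosphorylates both a threonine and a tyrosine in their activation loop, and a dual-specificity phosphatase removes both phosphates. Several of these phosphatases are themselves made in response to the kinases they silence, which gives a negative feedback, and in macrophages they set how long inflammatory signalling lasts. Dusp1, Dusp2, Dusp4 and Dusp5 encode inducible nuclear enzymes, Dusp6 and Dusp7 encode cytoplasmic enzymes that prefer ERK, Dusp10 and Dusp16 encode enzymes that prefer JNK and p38, and Dusp3 encodes a small enzyme that lacks the MAP kinase-binding domain of the others.

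Beta-adrenergic receptors raise cAMP, and the factor CREB, which cAMP activates through protein kinase A, binds the cAMP response element. RefSeq promoter windows of the build GRCm38.p6, which run from 250 bases before to 50 bases after each gene's start, were found for 8 of the 9 genes, the one not found being Dusp4. The full element TGACGTCA and its core TGACG were searched on both strands, and a match to the full element also counts as 2 matches to the core. The full element was found in the Dusp1 window alone, at positions -143 to -136 from the gene's start, beside a further core at -191 to -187. Of all 32851 windows in the table, 588 (1.79%) held the full element and 340 (1.03%) held 3 or more cores, as Dusp1 does. A single core, which 6837 windows (20.8%) held at least once, was found in Dusp16 at -70 to -66, in Dusp5 at -55 to -51 on the minus strand and in Dusp2 at 6 to 10 after the start on the minus strand. The windows of Dusp3, Dusp6, Dusp7 and Dusp10 held neither. The IFN-gamma-activated element TTCNNNGAA, found in 2726 of all windows (8.3%), was in none of the 8. A match is a run of letters and not a site shown to be bound. The 250 bases before the start are shown for Dusp1, the only gene of the family that passed the test with isoproterenol, and for Dusp16, which has a core and did not, with the searched letters in capitals. Dusp1 lies on the minus strand at chr17:26508473-26508722 and Dusp16 on the minus strand at chr6:134792629-134792878.
Dusp1: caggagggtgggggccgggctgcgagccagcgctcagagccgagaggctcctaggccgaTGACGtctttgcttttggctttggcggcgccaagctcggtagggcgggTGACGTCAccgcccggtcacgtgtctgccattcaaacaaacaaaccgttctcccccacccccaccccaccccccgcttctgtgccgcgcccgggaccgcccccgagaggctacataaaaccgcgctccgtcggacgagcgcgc
Dusp16: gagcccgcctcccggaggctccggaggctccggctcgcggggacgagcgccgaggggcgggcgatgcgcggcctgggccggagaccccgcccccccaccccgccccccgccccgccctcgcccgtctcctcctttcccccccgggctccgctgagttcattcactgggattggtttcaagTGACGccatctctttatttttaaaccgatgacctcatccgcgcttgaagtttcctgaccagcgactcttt

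**Figure D1:**
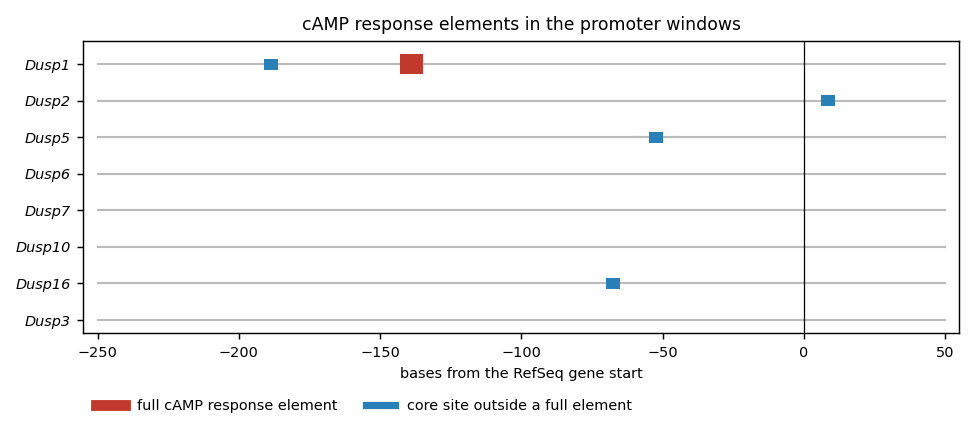
Matches to the cAMP response element in the promoter windows of 8 phosphatase genes, with the distance in bases from the RefSeq gene start on the horizontal axis. Dusp1 is the one window with the full element, while Dusp2, Dusp5 and Dusp16 each have a single core.

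After normalization, the 24 arrays had 9199 to 9276 genes above the background limit, a normalized intensity of 149.3. Normalization evens out the arrays, so these counts do not show how alike they were before it. The array medians of the non-normalized values ran from 134.59 to 172.2. With 3 experiments per group, their number limits the precision. All 8 macrophage markers were above the limit on all arrays of every group. Their summed intensity was 72930 to 76320 with isoproterenol, 64910 to 70090 with IL-4, 59590 to 64870 with IFN-gamma and 70390 to 74040 in medium. Most of this sum was Lyz2 and Cd68, which averaged 34480 and 22030 in medium. The markers did not move together. At a limma adjusted p under 0.05, IFN-gamma raised 2, Fcgr1 5.57-fold and Mertk 2.82-fold. It lowered 4, which were Cd14, Cd68, Itgam and Csf1r, and 43.3% of all genes tested passed in this comparison. With IL-4, 3 were higher and 2 lower, beside 7.81% of all genes. With isoproterenol Itgam alone was called, 1.30-fold higher (limma adjusted p = 0.011), beside 1.28% of all genes. Of the markers of other cells, 5 of 6 neutrophil genes were tested, and their sum was 1927 to 2495 with isoproterenol, 1562 to 1903 with IL-4, 3841 to 5126 with IFN-gamma and 1772 to 2554 in medium. S100a8, which macrophages can also express, averaged 3857 ± 246 with IFN-gamma and 1475 ± 302 in medium. The neutrophil granule genes Mpo and Elane were called lower with IFN-gamma. They averaged 152.4 and 147.1 there, near or below the background limit, and 195.1 and 175.9 in medium. The other tested granule genes, Ngp and Camp, were not called with IFN-gamma (limma adjusted p = 0.11 and 0.17). At most 1 gene was tested of each list of B cell, T cell, NK cell, dendritic cell, fibroblast, erythroid and megakaryocyte markers. The part of these shifts in the results was not tested, and in RNA of whole cultures fewer cells of a type and less RNA per cell cannot be told apart. The IFN-gamma arrays of experiment 1 differed from each other more than any other pair (r = 0.984 over all genes, against at least 0.997 in the other pairs). Of this pair, replicate 1 correlated at 0.986 to 0.988 with the IFN-gamma arrays of experiment 2 and at 0.996 with those of experiment 3. Replicate 2 did the reverse, at 0.996 to 0.997 with experiment 2 and at 0.986 to 0.987 with experiment 3. The IFN-gamma differences by experiment take the experiment numbers of the labels as given, and whether these hold for this pair was not tested. Where a call of a member was lost without 1 array of the pair, the values without each of them are given.

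Against medium, each activator moved a different number of these genes. With IFN-gamma 7 of the 8 were called, which means a limma adjusted p under 0.05 over all 10059 genes. Dusp2, Dusp3, Dusp4 and Dusp7 fell and Dusp1, Dusp10 and Dusp16 rose, and 43.3% of all genes tested were called in this comparison (17.4% higher, 25.9% lower). IL-4 raised Dusp4 and lowered Dusp6, so 2 of 8 were called beside 7.81% of all genes (4.05% higher, 3.77% lower). Isoproterenol raised Dusp1, and 1 of 8 was called beside 1.28% of all genes (1.01% higher, 0.268% lower). None fell with isoproterenol in the limma fit, and at an unadjusted p under 0.05 there were 2 higher and 0 lower. The median log2 fold change of the 8 genes was 0.04 with isoproterenol, -0.01 with IL-4 and -0.42 with IFN-gamma, where the medians of all genes were -0.00, -0.01 and -0.03. On the single arrays, the 6 IFN-gamma arrays did not overlap the 6 medium arrays in 6 of the 8 genes, beside 26.1% of all genes. For isoproterenol this held for Dusp1 alone, beside 2.49% of all genes, and for IL-4 in no member, beside 6.68%. The 3 comparisons share the medium arrays, so they are not independent of each other. The plot of estimates against medium shows these values with their intervals.

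**Figure D2:**
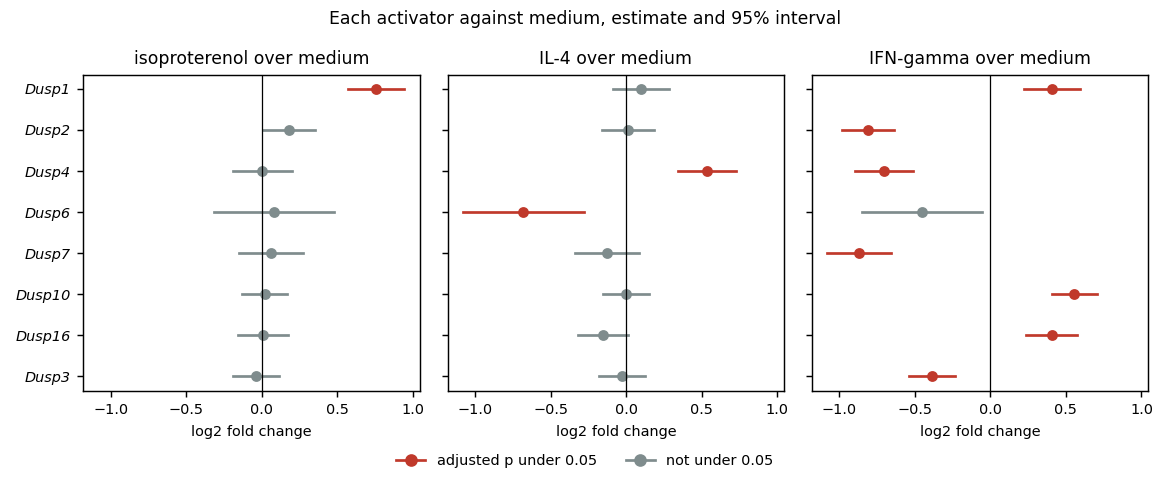
Log2 fold change of each phosphatase gene with isoproterenol, IL-4 and IFN-gamma over medium, with 95% intervals from the limma fit (n = 3 experiments per group). Genes with an adjusted p under 0.05 are in red: 1 with isoproterenol, 2 with IL-4 and 7 with IFN-gamma.

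Dusp1 encodes MKP-1, the founding member of the family, which dephosphorylates p38 and JNK in the nucleus and restrains cytokine production in macrophages. Its normalized intensity was 1438, 1490.4 and 1547 (lowest, median and highest of 6 arrays) with isoproterenol, 921, 979 and 1015 with IL-4, 965, 1179.7 and 1435 with IFN-gamma, and 862, 899 and 994 in medium. Every isoproterenol array was above every array of the other 3 groups, the IL-4 arrays lay within or just above the medium arrays, and the IFN-gamma arrays were spread between the others. The group means were 1488 ± 12.3 with isoproterenol, 1199.8 ± 160.2 with IFN-gamma, 969 ± 19.4 with IL-4 and 909.9 ± 31.1 in medium (SD, n = 3), in this order, and of its neighbours only IL-4 and medium were not told apart by the test. With isoproterenol Dusp1 rose 1.69-fold over medium, a log2 fold change of 0.76 ± 0.085 (SE, limma adjusted p = 0.002). The difference was 0.75, 0.72 and 0.80 on the log2 scale in experiments 1, 2 and 3, so it varied little. Isoproterenol and medium arrays shared a slide in experiment 1 alone. In experiments 2 and 3 they were on different slides, so slide and activator cannot be told apart there. Many of the 18 alternatives act only on the spread, the filter or the threshold. They could not move this estimate, because every experiment held every group. Over all 18 the estimate lay between 0.65 and 0.78, and the call was lost under 3 of them. These were the fit without experiment 1 (limma adjusted p = 0.064), the fit with slide and experiment as blocks (0.65, adjusted p = 0.065) and the fit within slide 1 (0.75, adjusted p = 0.42), where no gene at all was called and 623 had an unadjusted p under 0.05.

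With IFN-gamma Dusp1 rose 1.33-fold over medium (log2 fold change 0.41 ± 0.085 SE, limma adjusted p = 0.0022). This rise was uneven, with log2 differences of 0.37, 0.18 and 0.68 in experiments 1, 2 and 3. Of the discordant IFN-gamma pair of experiment 1, replicate 1 read 1406 and replicate 2 read 965. The log2 fold change over medium was 0.31 without replicate 1 (limma adjusted p = 0.046) and 0.51 without replicate 2 (adjusted p = 0.0011). Within slide 1 it was 0.37 (adjusted p = 0.17) and within slide 2 it was 0.18 (adjusted p = 0.18), so neither slide alone kept the call. With IL-4 the value was 0.10 ± 0.085 (95% interval -0.09 to 0.29, limma adjusted p = 0.61), which is not a call.

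Dusp2 encodes PAC-1, a nuclear phosphatase of activated leukocytes. It measured 339, 370.3 and 399 (lowest, median, highest) with isoproterenol, 311, 336 and 368 with IL-4, 189.7, 215 and 262 with IFN-gamma, and 316, 331 and 360.0 in medium. The IFN-gamma arrays all lay below every other array, while the isoproterenol, IL-4 and medium arrays overlapped. The means were 370.0 ± 17.6 with isoproterenol, 337 ± 15.0 with IL-4, 222 ± 16.05 with IFN-gamma and 334 ± 6.72 in medium (SD, n = 3). In the order of these means only the step between medium and IFN-gamma, the lowest, was called. Dusp2 fell 1.75-fold with IFN-gamma (log2 fold change -0.81 ± 0.078 SE, limma adjusted p = 7.2e-06), and it did so in each experiment, by 0.65, 1.01 and 0.76 on the log2 scale. This fall held in all 18 alternatives, with estimates of -1.01 to -0.60. With isoproterenol the estimate was 0.18 ± 0.078, with an unadjusted p of 0.04 and a limma adjusted p of 0.41, so it was not called. With IL-4 it was 0.01 (95% interval -0.16 to 0.19, limma adjusted p = 0.95).

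Dusp4 encodes MKP-2, an ERK-induced nuclear phosphatase that also acts on JNK. Its arrays read 198, 212 and 249 (lowest, median, highest) with isoproterenol, 255, 270.4 and 344 with IL-4, 153, 160.3 and 174 with IFN-gamma, and 186, 216 and 268 in medium. The IFN-gamma arrays lay below all others, the IL-4 arrays above all but the top of the medium range, and the isoproterenol arrays within the medium range. The means were 287 ± 40.1 with IL-4, 219 ± 24.9 with isoproterenol, 160.5 ± 4.91 with IFN-gamma and 220.1 ± 34.2 in medium (SD, n = 3). Of the neighbours in the order of these means, only isoproterenol and medium were not told apart by the test. Dusp4 was the member that IL-4 and IFN-gamma moved in opposite directions. It rose 1.45-fold with IL-4 (log2 fold change 0.54 ± 0.088 SE, limma adjusted p = 0.003) and fell 1.63-fold with IFN-gamma (-0.70 ± 0.088, adjusted p = 5.6e-05). On the intensities as deposited the rise was 1.31-fold and the fall 1.36-fold, so their sizes depend on the background step. Both signs were the same in the 3 experiments: 0.66, 0.50 and 0.45 with IL-4, and -0.42, -0.95 and -0.74 with IFN-gamma. Experiment 2 had the highest Dusp4 mean in all 4 groups, 248 with isoproterenol, 333 with IL-4, 166 with IFN-gamma and 256 in medium. When the experiment term was left out, the rise with IL-4 kept its size and lost its call (limma adjusted p = 0.12), while the fall with IFN-gamma was called in all 18 alternatives. With isoproterenol the estimate was 0.00 (95% interval -0.19 to 0.20, limma adjusted p = 1).

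**Figure D3:**
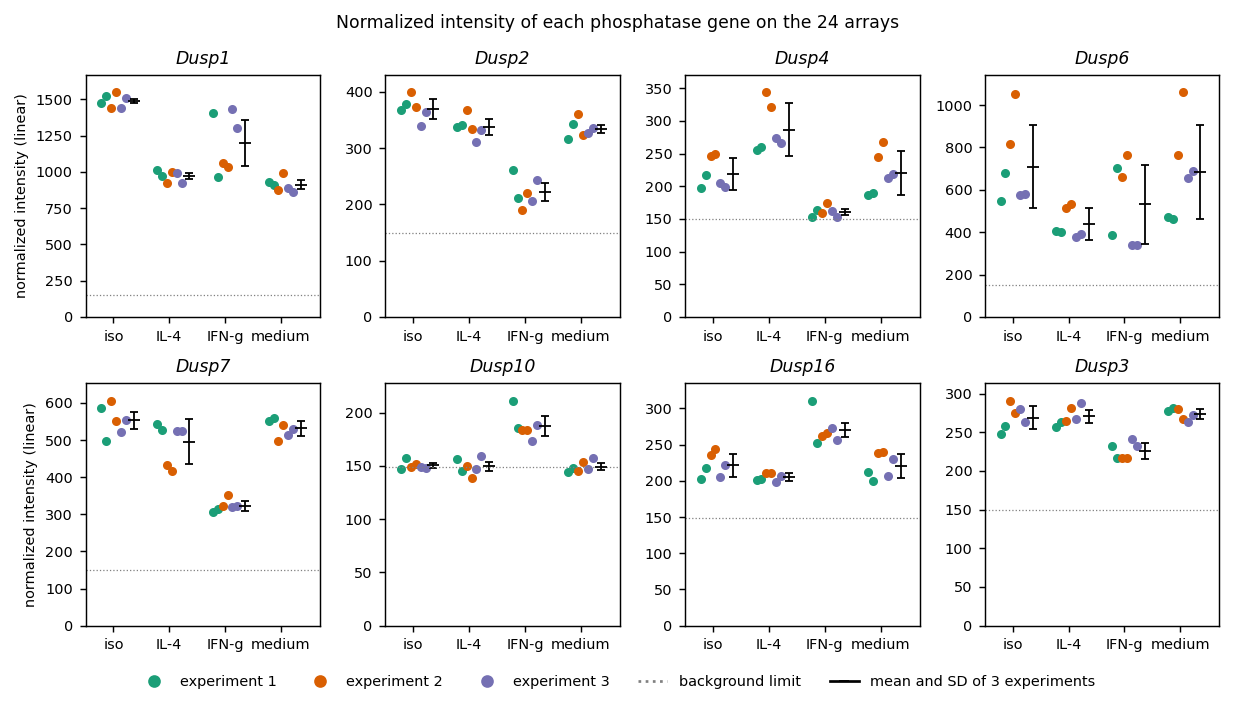
Normalized intensity of the 8 phosphatase genes on each of the 24 arrays, by group and coloured by experiment, with the mean and SD of the 3 experiments beside each group and the background limit of 149.3 dotted. The isoproterenol arrays of Dusp1 stand above all others, and the IFN-gamma arrays stand below all others in Dusp2, Dusp3, Dusp4 and Dusp7 and above all others in Dusp10 and Dusp16.

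Dusp6 encodes MKP-3, the cytoplasmic phosphatase that ERK signalling induces and that acts back on ERK, and its transcript is often read as a gauge of ERK activity. The arrays read 545, 630.0 and 1051 (lowest, median, highest) with isoproterenol, 379, 405 and 533 with IL-4, 338, 523 and 764 with IFN-gamma, and 460.1, 673 and 1059 in medium. No activator was clear of the medium arrays, and the IL-4 arrays were the only ones clear of the isoproterenol arrays. Dusp6 had the largest SE of the 8 genes, 0.181 in each contrast. This SE is taken after the level of each experiment is removed, so it reflects how unevenly the group differences repeated. The level of Dusp6 varied between experiments as well. Its experiment means in medium were 466, 912 and 673 in experiments 1, 2 and 3, and experiment 2 was the highest in all 4 groups. With IL-4 Dusp6 fell 1.60-fold below medium (log2 fold change -0.68 ± 0.181 SE, limma adjusted p = 0.043). The differences were -0.24, -0.87 and -0.93 in the 3 experiments. This call was lost under 9 of 18 alternatives, among them no background step (limma adjusted p = 0.052), leaving out experiment 2 (0.31) or experiment 3 (0.065), leaving out replicate 1 of the discordant IFN-gamma pair (0.19, against 0.023 without replicate 2), and slide and experiment as blocks (log2 fold change -0.46, adjusted p = 0.22). Within slide 1 the fall was 0.24 (limma adjusted p = 0.85) and within slide 2 it was 0.87 (adjusted p = 0.0089). Each of these fits compares arrays of a single experiment, so its p-value does not cover the spread between experiments.

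With IFN-gamma Dusp6 was not called (log2 fold change -0.45 ± 0.181 SE, limma adjusted p = 0.066). The 3 experiments did not share a sign, with differences of 0.18, -0.38 and -1.16 on the log2 scale. The discordant pair of experiment 1 read 387 and 702. Without the array that read 702 the estimate was -0.62 and passed the threshold (limma adjusted p = 0.0075), and without the array that read 387 it was -0.29 (adjusted p = 0.42). With isoproterenol the estimate was 0.08 with a 95% interval of -0.32 to 0.48 (limma adjusted p = 0.93). The means were 708 ± 196 with isoproterenol, 532 ± 186 with IFN-gamma, 438 ± 74.8 with IL-4 and 683 ± 223 in medium (SD, n = 3), and no neighbours in the order of these means were told apart by the test.

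**Figure D4:**
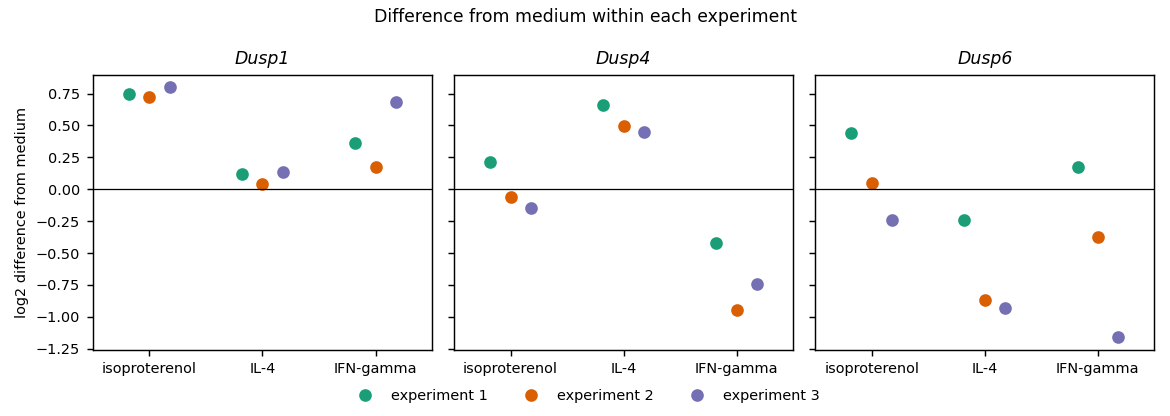
Log2 difference from medium within each of the 3 experiments for Dusp1, Dusp4 and Dusp6, with isoproterenol, IL-4 and IFN-gamma from left to right. The isoproterenol points of Dusp1 lie close together, between 0.72 and 0.80, whereas the IFN-gamma points of Dusp6 run from -1.16 to 0.18.

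Dusp7 encodes MKP-X, a close relative of Dusp6 that also prefers ERK. Its arrays read 496, 554 and 605 (lowest, median, highest) with isoproterenol, 418, 525 and 543 with IL-4, 307, 320.2 and 353 with IFN-gamma, and 497, 535 and 559 in medium. The IFN-gamma arrays lay far below the others, which overlapped. The means were 553 ± 22.3 with isoproterenol, 496 ± 60.8 with IL-4, 323 ± 13.7 with IFN-gamma and 532 ± 20.4 in medium (SD, n = 3), and of the neighbours in their order only IL-4 and IFN-gamma were told apart by the test. Dusp7 fell 1.83-fold with IFN-gamma (log2 fold change -0.87 ± 0.096 SE, limma adjusted p = 2.1e-05). This was the largest fold change of any member against medium, and it was called in all 19 alternatives. These included the single probe that matches this gene. The probe was picked by its likeness to these same values, so it is not a separate measurement. With IL-4 the log2 difference from medium was -0.13 (95% interval -0.34 to 0.08, limma adjusted p = 0.55), with a low mean of 426 in experiment 2 and means of 536 and 525 in the others. With isoproterenol it was 0.06 (95% interval -0.15 to 0.27, limma adjusted p = 0.89).

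Dusp10 encodes MKP-5, which acts on JNK and p38 and limits innate cytokine production. It was near the background limit outside the IFN-gamma group. The arrays read 147, 149 and 157 (lowest, median, highest) with isoproterenol, 139, 149 and 159 with IL-4, 173, 185 and 211 with IFN-gamma, and 144, 147 and 157 in medium. All 6 IFN-gamma arrays were above the limit, against 2 of 6 with isoproterenol, 3 of 6 with IL-4 and 2 of 6 in medium. Dusp10 rose with IFN-gamma by 0.55 ± 0.068 on the log2 scale (SE, limma adjusted p = 4.8e-05), which is 1.47-fold after the background step and 1.25-fold on the intensities as deposited, so the size of the rise is uncertain. The differences were 0.74, 0.51 and 0.42 in the 3 experiments. The mean was 187 ± 9.43 with IFN-gamma (SD, n = 3), and the other means, 150.4 ± 2.02 with isoproterenol, 149.7 ± 4.45 with IL-4 and 149 ± 3.18 in medium, could not be ordered. The estimates with isoproterenol (0.02, limma adjusted p = 0.96) and with IL-4 (-0.00, adjusted p = 1) compare signals that were mostly not well above background.

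Dusp16 encodes MKP-7, which prefers JNK and p38 and shuttles between nucleus and cytoplasm. It read 203, 220.4 and 244 (lowest, median, highest) with isoproterenol, 199, 205 and 211 with IL-4, 253, 264 and 310.0 with IFN-gamma, and 199.6, 221 and 239 in medium. The IFN-gamma arrays lay above all others, as for Dusp10. The means were 270.0 ± 9.79 with IFN-gamma, 221 ± 15.9 with isoproterenol, 205 ± 5.09 with IL-4 and 221 ± 16.7 in medium (SD, n = 3), and of the neighbours in their order only IFN-gamma and isoproterenol were told apart by the test. Dusp16 rose 1.32-fold with IFN-gamma (log2 fold change 0.41 ± 0.076 SE, limma adjusted p = 0.0011), by 0.62, 0.20 and 0.39 in experiments 1, 2 and 3. Within slide 2 the value of 0.20 was not called (limma adjusted p = 0.072). With isoproterenol, the agonist for which the core element above was searched, the estimate was 0.01 (95% interval -0.16 to 0.17, limma adjusted p = 0.99). With IL-4 it was -0.15 (95% interval -0.32 to 0.01, limma adjusted p = 0.31).

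Dusp3 encodes VHR, a small atypical phosphatase that acts on ERK and JNK and is not known as an early response gene. Its arrays read 248, 269 and 290.2 (lowest, median, highest) with isoproterenol, 257, 266 and 288 with IL-4, 216, 224 and 241 with IFN-gamma, and 263, 275 and 282 in medium. The IFN-gamma arrays were again the lowest, with no overlap, but closer to the others than in Dusp2 or Dusp7. The means were 271 ± 8.96 with IL-4, 269 ± 14.6 with isoproterenol, 226 ± 10.3 with IFN-gamma and 274 ± 6.11 in medium (SD, n = 3), and all but that with IFN-gamma were not told apart by the test. Dusp3 fell 1.31-fold with IFN-gamma (log2 fold change -0.39 ± 0.069 SE, limma adjusted p = 8e-04), by 0.45, 0.47 and 0.24 in the 3 experiments. With isoproterenol the estimate was -0.04 (95% interval -0.19 to 0.11, limma adjusted p = 0.91) and with IL-4 it was -0.03 (-0.18 to 0.13, adjusted p = 0.89).

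Set directly against IFN-gamma, isoproterenol differed in each member that was measured. All 8 genes were called, beside 46.2% of all genes tested (26.9% higher, 19.2% lower), and in 7 of them the arrays of the 2 groups did not overlap, beside 29% of all genes. Dusp2 was 1.99-fold higher with isoproterenol (log2 fold change 0.99, limma adjusted p = 1.2e-06), Dusp7 1.91-fold (0.93, adjusted p = 1.1e-05) and Dusp4 1.63-fold (0.71, adjusted p = 4.8e-05). Dusp3 was higher by 0.35 (limma adjusted p = 0.0015), Dusp6 by 0.53 (adjusted p = 0.032) and Dusp1 by 0.35 (adjusted p = 0.0057). Dusp10 was lower with isoproterenol by 0.53 and Dusp16 by 0.40 (log2 fold changes of -0.53 and -0.40, limma adjusted p = 5.6e-05 and 0.0011). The differences in Dusp1 and Dusp6 were the least stable. For Dusp1 the call was lost without experiment 1 (limma adjusted p = 0.072), without experiment 2 (0.077) and within slides 1 (0.15) and 4 (0.34), and for Dusp6 without experiment 2 (0.11), without experiment 3 (0.082) and without the IFN-gamma array that read 387 (0.28, against 0.0034 without the one that read 702). It was also lost for Dusp6 with no experiment term (0.23) and within slide 1 (0.56). For Dusp1 the log2 fold change was 0.44 without replicate 1 of the pair (limma adjusted p = 0.0083) and 0.25 without replicate 2 (adjusted p = 0.048).

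Against IL-4, isoproterenol differed in 3 of the 8 genes, beside 11.1% of all genes tested (6.49% higher, 4.58% lower), and these 3 were also the ones without overlap, beside 9.74% of all genes. Dusp1 was 1.58-fold higher with isoproterenol (log2 fold change 0.66 ± 0.085 SE, limma adjusted p = 0.00042) and Dusp6 was 1.70-fold higher (0.76 ± 0.181, adjusted p = 0.02). Dusp4 was lower with isoproterenol by 0.53 on the log2 scale (-0.53 ± 0.088, limma adjusted p = 0.0023), with the 6 isoproterenol arrays at 198 to 249 and the 6 IL-4 arrays at 255 to 344. The other 5 genes were not called, with estimates of 0.17 in Dusp2 (limma adjusted p = 0.23), 0.19 in Dusp7 (0.27), 0.16 in Dusp16 (0.24), 0.02 in Dusp10 (0.9) and -0.01 in Dusp3 (0.95). The Dusp6 difference lost its call without experiment 2 (limma adjusted p = 0.2) and without the IFN-gamma array of experiment 1 that read 387, which takes part in the shared spread (adjusted p = 0.11, against 0.0098 without the one that read 702). It was also lost with no experiment term (0.25) and within slide 1 (0.38).

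IL-4 and IFN-gamma, the 2 polarizing stimuli, differed in 7 of the 8 genes, beside 44.2% of all genes tested (25.4% higher, 18.7% lower), and in 6 of them without overlap, beside 27.3% of all genes. Dusp4 had the largest difference of the family in any comparison. It was 2.36-fold higher with IL-4 (log2 fold change 1.24 ± 0.088 SE, limma adjusted p = 4.9e-07), and the 3 experiments gave 1.09, 1.44 and 1.19. On the intensities as deposited Dusp4 was 1.78-fold higher. Its IFN-gamma arrays were close to the background limit, so the size depends on the background step. Dusp2 (0.83, limma adjusted p = 5.6e-06), Dusp7 (0.74, adjusted p = 7.1e-05) and Dusp3 (0.36, adjusted p = 0.0013) were also higher with IL-4. Dusp10 and Dusp16 were lower with IL-4, each by 0.56 on the log2 scale (limma adjusted p = 4.4e-05 and 9.9e-05). Dusp1 was lower with IL-4 by 0.31 (log2 fold change -0.31, limma adjusted p = 0.011), with overlapping arrays. This call was lost under 6 of 20 alternatives, with estimates of -0.55 to -0.13 over all of them. Apart from the fold threshold of 1.5, these were the fits without the IFN-gamma array that read 1406 (limma adjusted p = 0.15, against 0.0043 without the one that read 965), without experiment 1 (0.067), without experiment 3 (0.081) and within slides 1 (0.36) and 2 (0.32). Dusp6 was not called (-0.23, limma adjusted p = 0.35), and its sign differed between experiments (-0.42, -0.49 and 0.23). The plot of activators against each other shows the 3 comparisons.

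**Figure D5:**
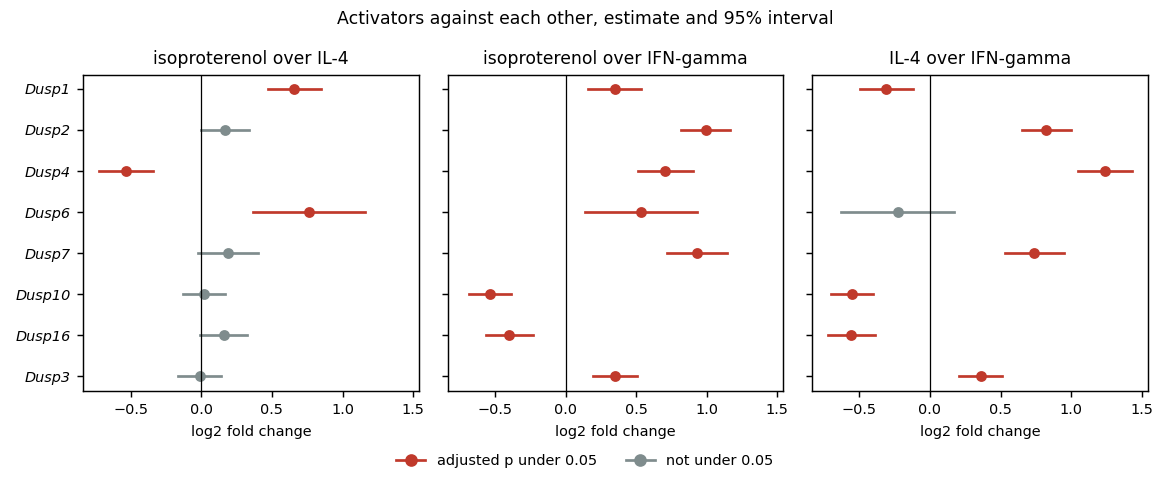
Log2 fold change of each phosphatase gene between activators, isoproterenol over IL-4, isoproterenol over IFN-gamma and IL-4 over IFN-gamma, with 95% intervals from the limma fit (n = 3 experiments per group). Red marks an adjusted p under 0.05, which 3, 8 and 7 of the 8 genes reached from left to right, and Dusp4 over IFN-gamma with IL-4 is the largest at 1.24.

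Across the 12 averaged values, with each experiment's mean removed, the genes formed 2 opposed sets and 2 that stood apart. Dusp2, Dusp3, Dusp4 and Dusp7 correlated with each other at 0.70 to 0.92 (Pearson's r), Dusp10 and Dusp16 at 0.93, and Dusp2 with Dusp10 at -0.92. Dusp1 and Dusp6 had values of at most 0.42 in size with any other member. These values share arrays and groups, and they are given as a description. Of the 3 tested genes most like each member by the same measure, those named here are Pla1a, Abi3 and Snx15 for Dusp1 (0.952 to 0.964), Acsl3 and St3gal3 for Dusp2 (both 0.992) and Snx4, Thtpa and Ppm1a for Dusp3 (0.974 to 0.982). They are also Prss21, Fcrls and Mob3b for Dusp4 (0.983 to 0.986), Cop1, Sypl and Cklf for Dusp6 (0.937 to 0.975), Med22, Dpep2 and Chkb for Dusp7 (0.987 to 0.991), Pdgfrl, Nampt and Mycbp for Dusp10 (all 0.984) and Lysmd1, S100a8 and E2f3 for Dusp16 (0.971 to 0.977).

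A list of 18 other dual-specificity phosphatase genes, most of them atypical enzymes, had 12 members that were tested. With isoproterenol none was called by limma, and none had an unadjusted p under 0.05. With IL-4 Dusp23 alone was called, 1.38-fold higher. With IFN-gamma 1 was higher and 4 were lower, beside 17.4% and 25.9% of all genes tested, and the one that rose was Dusp28. Dusp28 averaged 982 ± 118 with IFN-gamma and 293 ± 27.4 in medium (SD, n = 3). The difference of 4.06-fold (limma adjusted p = 6.2e-09) is larger than that of any of the 8 genes above. Styx, a pseudophosphatase that binds ERK, fell 1.41-fold, and Dusp22, which acts in JNK signalling, 1.27-fold. Dusp13 averaged 141.5 ± 2.65 with IFN-gamma, below the background limit, and 165.8 ± 2.59 in medium (limma adjusted p = 3e-04), so no fold is given. The median of the 12 log2 fold changes was -0.03 with isoproterenol, -0.03 with IL-4 and -0.08 with IFN-gamma.

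The kinases that these phosphatases act on were measured as well. Of 12 MAP kinase genes, 8 were tested, and none was called with isoproterenol or with IL-4, where limma gave an unadjusted p under 0.05 to 0 and 1 of them. With IFN-gamma Mapk9, which encodes JNK2, rose 1.68-fold, at 999.5 ± 55.3 with IFN-gamma and 622 ± 7.58 in medium. Mapk3, which encodes ERK1, fell 1.47-fold with IFN-gamma, and Mapk6, an atypical ERK, fell 1.26-fold. The median of the 8 genes was -0.15 with IFN-gamma, beside -0.03 for all genes. Of 7 MAP kinase kinases, IL-4 raised Map2k3, an activator of p38, 1.24-fold, IFN-gamma lowered Map2k5, the activator of ERK5, 1.21-fold, and isoproterenol moved none (1 at an unadjusted p under 0.05 by limma). Of 13 tested MAP3 kinase and Raf genes, IFN-gamma raised 2 and lowered 4, beside 17.4% and 25.9% of all genes tested. Map3k11 was 1.26-fold lower and Map3k14 1.23-fold higher, and isoproterenol moved none of the 13 (3 at an unadjusted p under 0.05 by limma). Downstream, of 8 tested kinases that MAP kinases activate, IL-4 lowered Mapkapk2 1.33-fold and raised Mapkapk3 1.24-fold, both being kinases downstream of p38. IFN-gamma lowered 4 of them, among them Mapkapk3 1.36-fold and Mknk1 1.37-fold, and raised Rps6ka4, which encodes MSK2, 1.30-fold. Among all genes tested, 25.9% were lower and 17.4% higher with IFN-gamma.

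Genes that ERK signalling induces early were examined because Dusp4 and Dusp6 respond to the same input. Of 26 such genes, 20 were tested. Isoproterenol raised 4 and lowered none (6 and 0 at an unadjusted p under 0.05 by limma): Fos 1.88-fold, Phlda1 1.59-fold, Ier3 1.58-fold and Zfp36, whose product degrades cytokine mRNA and is a substrate of the p38 pathway, 1.38-fold. IL-4 raised 7 and lowered none (9 and 0 at an unadjusted p under 0.05 by limma), led by Ier3, which averaged 3776 ± 740 with IL-4 and 1356 ± 228 in medium, a 2.88-fold rise, and Egr2, 2.08-fold. IFN-gamma raised 4 and lowered 9, with Egr2 2.66-fold lower, Phlda1 1.75-fold lower, Klf2 2.03-fold higher and Fos 1.76-fold higher. The median of the list was 0.07 with isoproterenol, 0.16 with IL-4 and -0.08 with IFN-gamma, beside -0.00, -0.01 and -0.03 for all genes. Among all genes tested, 1.01% were called higher with isoproterenol, 4.05% with IL-4 and 17.4% with IFN-gamma, where 25.9% were lower. Of 11 other tested feedback inhibitors of ERK signalling, Spry3 rose 1.34-fold with isoproterenol and fell 1.40-fold with IL-4, close to the background limit. With IFN-gamma it averaged 147.8 ± 1.03, below that limit, and in medium 188.5 ± 11.0 (limma adjusted p = 3.5e-05), so no fold is given. IFN-gamma raised 1 and lowered 4 of the 11, beside 17.4% and 25.9% of all genes tested. Errfi1, an inhibitor of the EGF receptor, rose 1.93-fold with IL-4. Pea15a, which holds ERK in the cytoplasm, fell 2.34-fold with IFN-gamma, and Rasa1, a Ras GTPase-activating protein, fell 1.97-fold. Spred1, an inhibitor of Ras signalling, was the one that rose, 1.29-fold (limma adjusted p = 0.01). Of 8 tested phosphatases of other classes that act on MAP kinases, IFN-gamma lowered Ppm1a 1.28-fold and Ppp2cb by a log2 fold change of -0.26, and limma called none with isoproterenol or IL-4 (1 each at an unadjusted p under 0.05).

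Because cAMP is the messenger of beta-adrenergic receptors and Dusp1 is an early CREB target, 19 other early targets of cAMP and CREB were listed, of which 12 were tested. Isoproterenol raised 2 of the 12 and lowered none (5 and 0 at an unadjusted p under 0.05 by limma). Fos averaged 1348 ± 90.2 with isoproterenol and 766 ± 176 in medium (limma adjusted p = 0.00097), and Crem, which encodes an inducible repressor of cAMP-driven transcription, averaged 191 ± 5.74 and 167 ± 2.29 (1.25-fold, adjusted p = 0.047). The list is short, and Fos stands in the ERK list too. IFN-gamma raised 6 of the 12 and lowered 1, with Crem 1.86-fold, Cited2 1.98-fold and Thbs1 2.43-fold higher, and IL-4 raised Hbegf alone, 1.77-fold. The median of the list was 0.12 with isoproterenol, -0.03 with IL-4 and 0.17 with IFN-gamma. Among all genes tested, 1.01% were called higher with isoproterenol, 4.05% with IL-4 and 17.4% with IFN-gamma, where 25.9% were lower.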

How the data were processed

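RNA of 24 macrophage samples was hybridised to Illumina MouseRef-8 v2.0 bead arrays, which were read with GenomeStudio per the submitters' processing notes (no version is stated). The authors deposited linear intensities: normalized values of 18132 genes, used here, and a non-normalized table of 25697 probes without gene names. The normalized array medians lay between 150.02 and 150.38, against 134.59 to 172.2 in the non-normalized table. No genome build is given in the sources used here.

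The background was adjusted by normexp (limma 3.58.1, R 4.3.3) with an offset of 50 and the values were taken to log2, so the fold changes of dim genes can exceed the ratio of the deposited intensities. The background limit of 149.3 was the mode of the intensities (137.4) plus 1.645 SD below the mode, and the 10059 genes above it on at least 6 arrays were tested. The 2 arrays per experiment and activator were averaged, a model with group and experiment was fitted, and 6 contrasts were tested two-sided with empirical Bayes and Benjamini-Hochberg adjustment over all 10059 genes, at 0.05. The fit was tested on simulated data.

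The members, gene lists and tests were chosen with earlier results of these data known. All members were named, with up to 4 called genes of each list per activator and the 3 genes closest in pattern to each member; some genes that this rule names are not reported here. Alternatives covered background, filter, averaging, experiment term, groups in the fit, moderation, a fold threshold of 1.5, slide (read from the file header), probes and left-out arrays or experiments. Each experiment held every group. Changes of filter, averaging, experiment term, groups in the fit, moderation or fold threshold can therefore move a call but not an estimate. Leaving out replicate 1 of the IFN-gamma pair of experiment 1 was added after seeing the data. Same-numbered arrays of different groups correlated at -0.01 to 0.22, so the number was not used as a pairing. Only Dusp1 and Dusp7 matched a single probe (root mean square under 0.02 on the log2 scale). The match was made on the values themselves, so the probe fit is not a separate measurement of either gene. A planned comparison of protein sequences was not run.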

Additional observations from a re-analysis of the deposited data

Results flagged for a closer look

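One of 32 sets of 6 arrays (8 genes in 4 groups) held an array far from the rest, where chance gives about 1 in 20. It was Dusp7 with IFN-gamma, where replicate 2 of experiment 2 read 353 and the nearest other array 323, a gap of 0.642 of the range of the 6 log2 values, just past Dixon's critical value. This array still lay below every array of the other 3 groups, the lowest of which read 418.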

How the results depend on the processing

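Of 876 gene values recomputed under the alternatives, 815 kept their direction and side of the threshold, or were not called in either, 54 lost a call, 6 gained one and 1 that was not called over all experiments was called with the opposite sign. It was Dusp6 in IL-4 against IFN-gamma, at 0.23 within slide 4 (limma adjusted p = 0.044), against -0.23 over all experiments; the cause was not tested. The calls of Dusp2, Dusp4 and Dusp7 in the 3 comparisons that involve IFN-gamma held under every alternative run. The count of phosphatase genes called changed as follows. For IL-4 against medium it was 2, and it was 1 with no background step, an offset of 16, robust limma-trend, a fold of at least 1.5, slide and experiment as blocks or slide 1 alone, 0 with no experiment term (1 at an unadjusted p under 0.05), and 1 to 2 when an experiment or an IFN-gamma array was left out. For isoproterenol against medium it was 1, and it was 0 with slide and experiment as blocks or within slide 1 (1 each at an unadjusted p under 0.05), and 0 to 1 with samples left out. For isoproterenol against IL-4 it was 3, and it was 1 with no experiment term and 0 within slide 1 (3 at an unadjusted p under 0.05). A fold of at least 1.5 left 3 genes in each comparison with IFN-gamma, and isoproterenol against IFN-gamma gave 5 within slide 1. The number of all genes called moved more. For IL-4 against medium (786) it was 1303 with the replicate block, 447 with no experiment term, 222 with the fold threshold, 147 within slide 1 and 358 to 679 with samples left out. For isoproterenol against medium (129) it was 83 with an offset of 16, 285 with array pairs as a random block, 365 with the replicate block, 36 with no experiment term, 196 with only these groups, 45 with the fold threshold, 5 with slide and experiment as blocks, 0 within slide 1 (623 at an unadjusted p under 0.05) and 12 to 118 with samples left out. For isoproterenol against IL-4 (1114) it was 1719, 661, 280 and 208 with the replicate block, no experiment term, the fold threshold and slide 1, and 519 to 979 with samples left out. With the fold threshold and within slide 1 it was 1316 and 2488 for IFN-gamma against medium (4357), 1393 and 2205 for IL-4 against IFN-gamma (4442), and 1483 and 2387 for isoproterenol against IFN-gamma (4645). The replicate block left the count of phosphatase genes as it was except for IFN-gamma against medium, 8 in place of 7. Tests within a slide rest on 2 arrays per group, both of the same experiment. Their p-values cover the spread between arrays and not that between experiments. In the fit with slide and experiment as blocks, the isoproterenol value of experiment 2 and the medium value of experiment 3 carry no weight. Each was the only group of its experiment on its slide. Every comparison with medium thus crosses slides in experiment 3, and that of isoproterenol does so in experiment 2 as well. Dusp10 lies near the background limit outside IFN-gamma, and Dusp4 lies near it with IFN-gamma, so the fold changes of both depend on the background step.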

Other observations

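Inflammatory genes that MAP kinase signalling drives, most of them encoding cytokines or chemokines, were listed as well. Of 13 such genes, 9 were tested. Isoproterenol raised the neutrophil chemokines Cxcl1 (1.61-fold, 356 ± 27.5 with isoproterenol and 248 ± 22.6 in medium, SD, n = 3) and Cxcl2 (1.34-fold) and lowered none by limma (2 higher and 1 lower at an unadjusted p under 0.05). These rises stand beside the rise of Dusp1 in the same cultures, and a link between them was not tested. IL-4 raised Il1a 1.27-fold and lowered Nfkbiz, an atypical inhibitor of NF-kB proteins, 1.52-fold. IFN-gamma raised 4 and lowered 4, with Tnf 3.60-fold higher (1075 ± 257 with IFN-gamma and 327 ± 34.9 in medium), Il1b 2.09-fold higher, and the chemokines Ccl3 3.97-fold lower and Cxcl1 2.04-fold lower. The median log2 fold change of the 9 genes was -0.12 with isoproterenol, -0.18 with IL-4 and 0.29 with IFN-gamma. Among all genes tested, 1.28% were called with isoproterenol, 7.81% with IL-4 and 43.3% with IFN-gamma, in either direction.

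Dusp1 is also a target of the glucocorticoid receptor, and 11 other glucocorticoid-induced genes were listed, of which 9 were tested. With isoproterenol none was called by limma, and 3 were higher and 0 lower at an unadjusted p under 0.05. IL-4 raised Klf9 1.97-fold and Errfi1 1.93-fold and lowered none (4 and 0 at an unadjusted p under 0.05 by limma). IFN-gamma raised 2 and lowered 3, with Klf9 at 436 ± 63 with IFN-gamma and 986 ± 262 in medium (2.45-fold lower) and Tsc22d3, which encodes GILZ, 1.47-fold lower. Among all genes tested, 17.4% were higher and 25.9% lower with IFN-gamma, and 4.05% were higher with IL-4. A part of the glucocorticoid receptor in the changes of Dusp1 was not tested.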
